A study of Homo sapiens with 6 samples.

Results

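The genes that encode the enzymes modifying histones and DNA were followed in PANC1, a human pancreatic carcinoma cell line, after treatment with gemcitabine, a nucleoside analogue used as chemotherapy in pancreatic cancer. The rule for members reads gene symbols and no measured value, and it was set with earlier results of these data known. A gene was taken when its current symbol starts with KDM, KMT, HDAC, SIRT, SETD, EZH, DNMT or PRMT followed by a digit, or is TET1, TET2 or TET3. The rule found 71 of the 20461 genes of the expression table, of which 70 are enzyme genes and 1, HDAC4-AS1, is an antisense transcript of HDAC4. KMT2B was not matched by identifier and was not analysed here. RNA-seq was available for 2 libraries of cells given vehicle (DMSO) and 2 libraries of cells given 50 nM gemcitabine, both for 48 h, and DNaseI-seq for 1 library of each condition. All libraries came from the same line, and the labels give 1 growth protocol for all of them. Charcoal stripped and dialyzed serum is named there, but which cultures received it is not stated plainly. One tumour line stands for the disease here, and the libraries of a condition were described as biological replicates.

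Histone methyltransferases write methyl marks on lysines (KMT2, KMT5, SETD and EZH genes) or arginines (PRMT genes), and the KDM demethylases remove lysine methylation with either flavin or iron and 2-oxoglutarate. Histone deacetylases remove acetyl groups, the HDAC enzymes with a metal ion and the sirtuins with NAD, while DNMT enzymes methylate cytosine and TET enzymes oxidise that mark on the way to its removal. Many of these enzymes also act on proteins other than histones, and several are drug targets in cancer.

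The RNA libraries held 13194533 to 15766237 fragments assigned to genes, so that 3 fragments, the limit that a count of 0 allows, correspond to 0.190 to 0.227 CPM, a unit that sets a gene's fragments against the total of its library. These limits cover counting error only. Among the markers of ductal carcinoma epithelium, KRT7 was at 1491 to 1658 FPKM, a level scaled by the authors for transcript length and library depth. KRT8 was at 471 to 650 FPKM. Of the other epithelial markers, KRT18 was at 336 to 472 FPKM, and KRT19 and EPCAM were low, at 2.09 to 6.91 FPKM. Some of these markers changed with treatment: KRT8 rose by 0.29 on the log2 scale, KRT18 by 0.27 and KRT19 by 1.13, and KRT7 fell by 0.18. Leukocyte markers were at or near 0 (CD3E and LYZ at 0, CD14 at 0 or 1 and PTPRC at 2 to 9 fragments), and acinar and islet markers likewise (PRSS1, INS and GCG at 0, CPA1 and CELA3A at 0 or 1). Of the endothelial markers CDH5 had 0 to 3 fragments, and VWF rose from 8 and 9 fragments to 34 and 30 (adjusted p = 0.000902). The part of other cell types in the results was not tested. In such bulk libraries fewer cells of a type and less RNA per cell cannot be told apart.

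The enzyme genes were expressed at levels from 0 to 149 FPKM in the vehicle libraries (mean of 2), with a median of 13.9 FPKM over 69 genes against 11.9 FPKM over all 14854 genes tested. The mean was at least 10 FPKM for 44 of them and at least 100 FPKM for 5. PRMT7, a monomethylating arginine methyltransferase, led with 149 ± 13.7 FPKM (SD, n = 2). PRMT1, the main enzyme of asymmetric arginine dimethylation, followed with 143 ± 1.72 FPKM, and PRMT5, the main enzyme of symmetric dimethylation, with 139 ± 11.4 FPKM. HDAC2, a class I deacetylase, had 137 ± 3.45 FPKM and DNMT1, the maintenance DNA methyltransferase, 122 ± 5.12 FPKM. PRMT7, PRMT1 and PRMT5 did not differ beyond the spread of their libraries, nor did PRMT5 and HDAC2, whereas HDAC2 and DNMT1 did not overlap. At the low end stood KDM4D (0.757 FPKM), HDAC9 (0.253 FPKM), TET1 (0.0136 FPKM) and PRMT8 (0.000996 FPKM), and KDM4E was listed at 0. TET1 still had 17 to 31 fragments a library, so that its FPKM and its fragments rank it differently. On another scale per length, CPM divided by the kilobases of the longest annotated mRNA (added after the data were seen), PRMT1 led with 87.3, followed by HDAC1 with 69.8 and DNMT1 with 33.9, and PRMT7, first by FPKM, stood behind them. The order at the top thus depends on which transcript length is used.

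Gemcitabine was then compared with vehicle by the quasi-likelihood test of edgeR on fragment counts, with Benjamini-Hochberg adjustment over all 14854 genes. Changes are log2 fold changes of gemcitabine over vehicle with their standard errors (SE). Of the 69 members tested, 38 had an adjusted p under 0.05, or 55.1% against 38.5% of all genes tested. The share that was higher, 14 members or 20.3%, stood near the 18.5% of all genes, and the share that was lower, 24 members or 34.8%, stood above the 20% of all genes. With library totals in place of the scaling used, which shifts the median of all genes from 0.0069 to 0.12 on the log2 scale, the split of the members became 23 higher (33.3%, against 27.4% of all genes) and 18 lower (26.1%, against 13.3%). Most changes were small. Among the 38, the fold was over 1.5 in 7 and smaller in the other 31. Of the 38, 18 passed the test without vehicle replicate 1 and 12 without vehicle replicate 2. The 2 members not tested were KDM4E and 1 member that is not described here.

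The median log2 change was -0.16 over the 69 members (quartiles -0.36 and 0.22) and 0.0069 over all genes tested. With library totals, which shift all genes alike, it was -0.052 against 0.12. On the log2(FPKM + 1) scale with a filter the medians lay closer together, at 0.013 and 0.10. The CPM of the conditions did not overlap for 37 members that were lower (34.7% of all genes were) and 24 that were higher (35% of all genes), or 53.6% and 34.8% of the members. In either direction that made 61 members, or 88.4%, where 69.7% of all genes did not overlap. The members were also expressed above the common gene, with a median of 41.4 CPM against 27.4 CPM, and their larger share of calls was not tested against that depth.

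**Figure D1:**
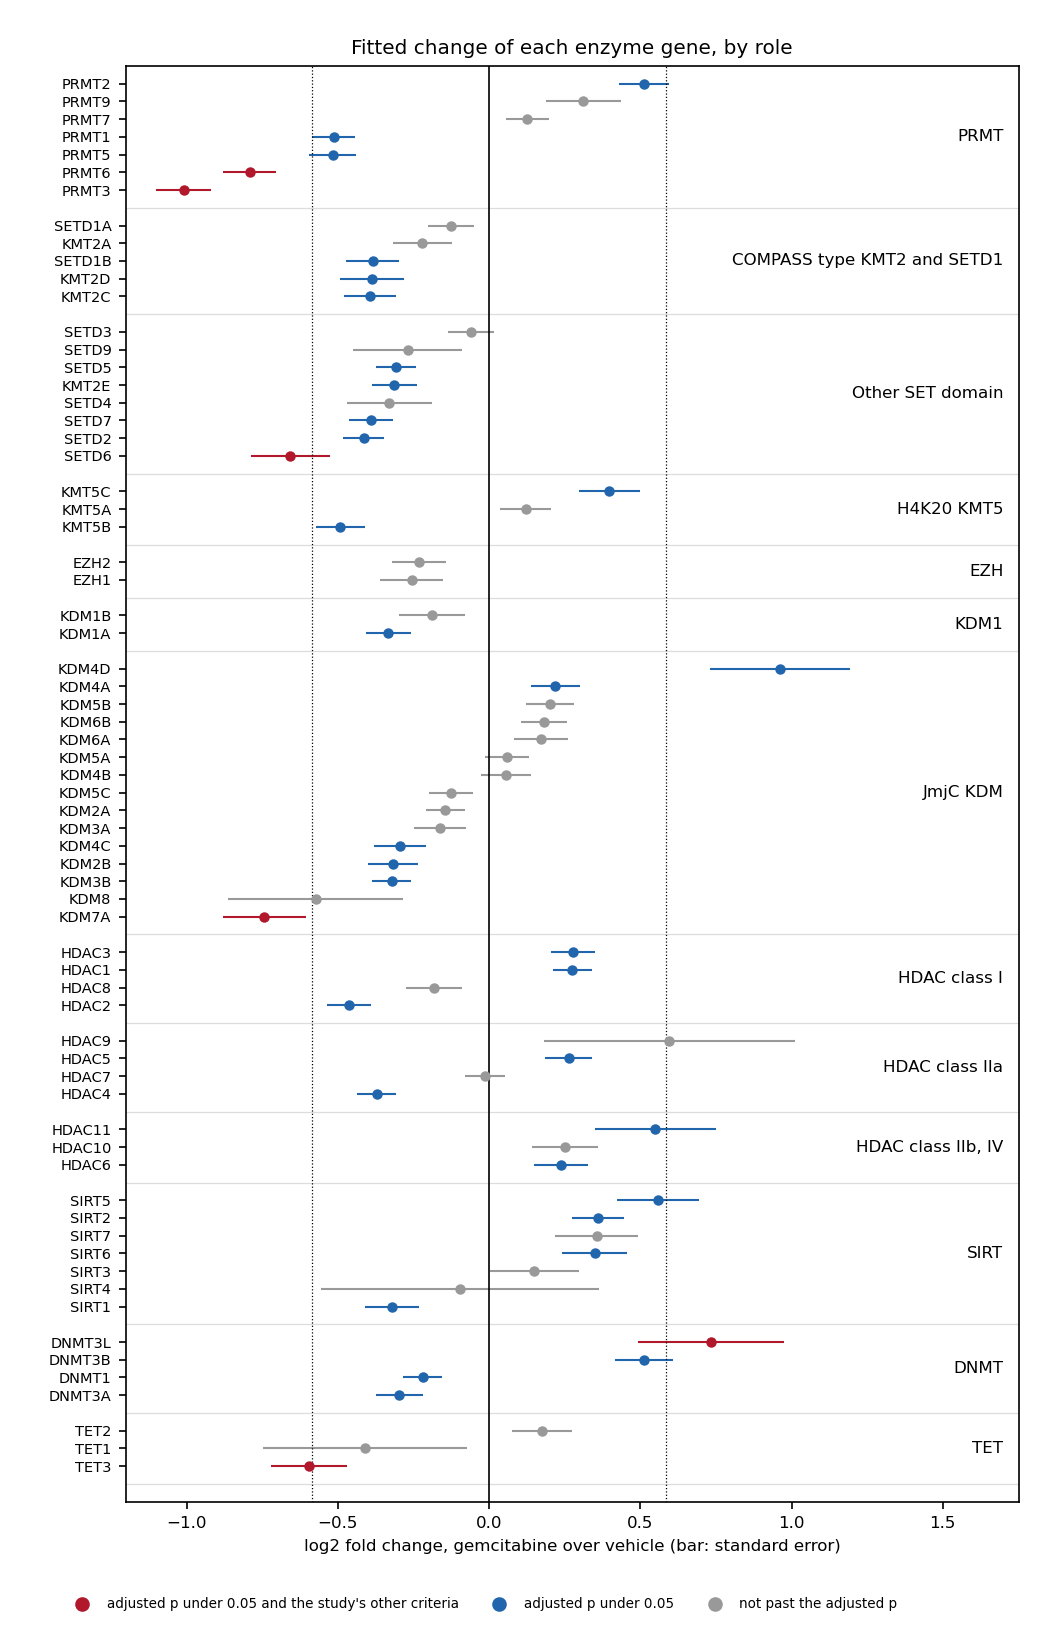
The log2 fold change of gemcitabine over vehicle is plotted for each enzyme gene tested except PRMT8, whose SE of 0.88 is off the scale in use, grouped by role, with bars for the SE and dotted lines at a fold of 1.5. The COMPASS type and other SET domain genes lie to the left of 0, the sirtuins and the class IIb and IV deacetylases mostly to the right, and PRMT3 lies farthest to the left at -1.01.

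The study asked more of a changed gene than a p, namely a fold over 1.5, a mean of at least 0.1 FPKM in 1 condition and a difference of mean FPKM of at least 1. With edgeR in place of the authors' tool, 6 of the 69 members (8.7%) met these 4 criteria, against 10.1% of all genes. Those that fell were PRMT3, PRMT6, KDM7A, SETD6 and TET3, 5 members or 7.25% against 4.42% of all genes. The 1 that rose, DNMT3L, makes 1.45% against 5.69% of all genes. KDM4D had a fold of 1.95 but missed the criterion on the FPKM difference.

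The arginine methyltransferases held the largest change of all members. PRMT3 (ENSG00000185238.8, hg19 chr11:20409104-20530884), a cytosolic enzyme known for methylating a protein of the small ribosomal subunit, had 849 and 931 fragments with vehicle and 376 and 440 with gemcitabine. Both treated libraries lay far below both vehicle libraries. The log2 change was -1.01 (SE 0.092, adjusted p = 1.51e-06), a fall of 2.01 times, and it stayed between -1.14 and -0.89 with any 1 library left out. PRMT6 (ENSG00000198890.5, hg19 chr1:107599296-107610258), which methylates arginine 2 of histone H3 and so opposes methylation of the neighbouring lysine 4, had 617 and 627 fragments with vehicle against 343 and 321. Its conditions were separated just as clearly, with a log2 change of -0.79 (SE 0.088, adjusted p = 8.33e-06).

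PRMT1 fell from 2263 and 2289 fragments to 1562 and 1386, a log2 change of -0.51 (SE 0.071, adjusted p = 5.65e-05). PRMT5 fell from 1023 and 1044 fragments to 709 and 626, a change of -0.52 (SE 0.078, adjusted p = 0.000122). The main enzymes of both kinds of arginine dimethylation were therefore lower in both treated libraries, as was the CPM of 34.7% of all genes tested. On the FPKM scale the log2 ratio was -0.39 for PRMT1 and -0.29 for PRMT5. PRMT2, a weakly active member of the family, went the other way, from 565 and 572 fragments to 796 and 704 (log2 change 0.51, SE 0.083, adjusted p = 0.000222). PRMT7 had 1966 and 1964 fragments with vehicle and 2104 and 1862 with gemcitabine (log2 change 0.13, adjusted p = 0.18), and PRMT9 had a change of 0.31 (adjusted p = 0.0596). PRMT8, known from brain, had 1 to 4 fragments a library. In all, 4 of the 8 fell and 1 rose, with a median of -0.43, and with library totals 4 fell and 3 rose. Over all genes tested 20% fell and 18.5% rose, or 13.3% and 27.4% with library totals. CARM1, the arginine methyltransferase whose symbol the rule did not take, was lower as well (log2 change -0.54, adjusted p = 2.73e-05).

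**Figure D2:**
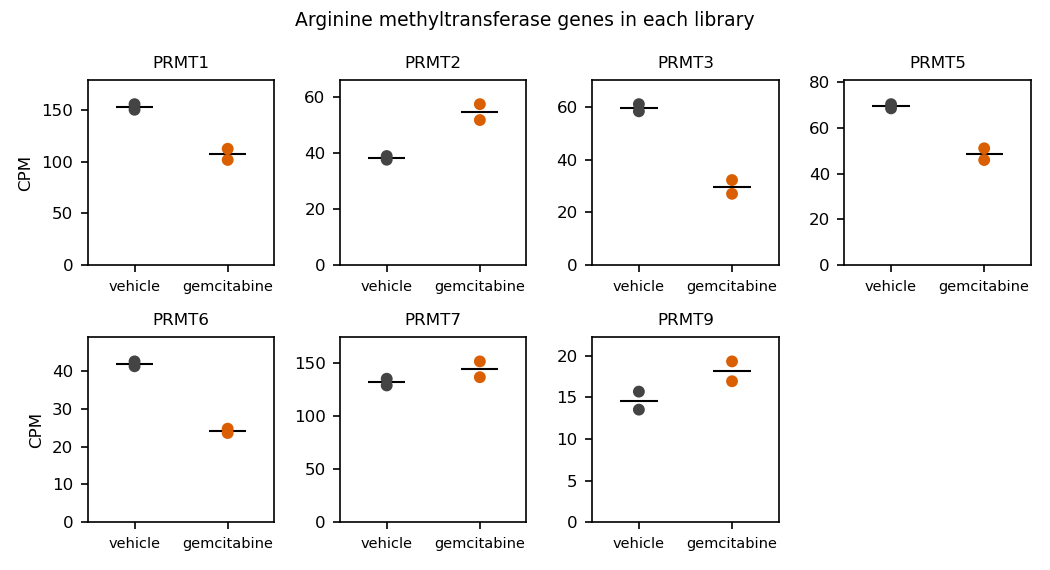
CPM of 7 arginine methyltransferase genes is plotted for each library, as points for the 2 vehicle and 2 gemcitabine libraries with a line at their mean, on axes that start at 0. PRMT1, PRMT3, PRMT5 and PRMT6 lie lower in both treated libraries, and PRMT2 lies higher in both.

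Among the lysine methyltransferases, the COMPASS type enzymes of histone H3 lysine 4 (H3K4) all had changes below 0, also with library totals. KMT2C and KMT2D, which monomethylate H3K4 at enhancers, and SETD1B, which trimethylates it at promoters, fell, and none of the 5 rose. Over all genes tested 20% fell and 18.5% rose. KMT2C went from 592 and 669 fragments to 452 and 434 (log2 change -0.39, SE 0.085, adjusted p = 0.00214). SETD1B went from 947 and 1027 fragments to 767 and 630 (log2 change -0.38, SE 0.086, adjusted p = 0.00276). KMT2D had 1405 and 1626 fragments with vehicle and 1237 and 903 with gemcitabine (log2 change -0.39, SE 0.11, adjusted p = 0.00945). The treated libraries of KMT2D lay far apart, and the adjusted p was 0.073 with library totals and 0.19 with DESeq2. SETD1A, the paralog of SETD1B, had a change of -0.13 (adjusted p = 0.21), and KMT2A, the MLL gene, -0.22 (adjusted p = 0.0881). On the FPKM scale the group's median log2 ratio was -0.094, smaller than the -0.38 of the fitted changes.

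The 8 other genes with a SET domain also lay below 0, and 5 fell, where 20% of all genes tested did. SETD3, however, had a change above 0 with library totals. SETD6 (ENSG00000103037.7, hg19 chr16:58549383-58557746), known for methylating the NF-kB subunit RELA, went from 226 and 280 fragments to 150 and 146 (log2 change -0.66, SE 0.13, adjusted p = 0.00115). SETD2, the enzyme of H3K36 trimethylation, went from 1915 and 2056 fragments to 1338 and 1414 (log2 change -0.41, SE 0.068, adjusted p = 0.000263). SETD7, which monomethylates H3K4 and several transcription factors, fell by 0.39 on the log2 scale (SE 0.074, adjusted p = 0.000787) from 2637 and 3024 fragments to 1913 and 2073. For these genes the vehicle and treated libraries did not overlap. KMT2E and SETD5, for which a catalytic role is unsettled, fell by 0.31 each, with adjusted p = 0.00405 and 0.00212. SETD5 had the highest level of the group in vehicle, 90.5 ± 13.7 FPKM (SD, n = 2), and its mean FPKM with gemcitabine was 90.1, so that its fall shows in fragments and not in FPKM.

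The H4K20 methyltransferases split. KMT5B, which dimethylates H4K20, went from 1051 and 1182 fragments to 691 and 775 (log2 change -0.49, SE 0.081, adjusted p = 0.000275). KMT5C, its paralog known for trimethylation in heterochromatin, went from 346 and 337 to 450 and 382 fragments (log2 change 0.40, SE 0.10, adjusted p = 0.00659). The pair of paralogs thus moved in opposite directions, with no overlap of CPM in either. KMT5A, the monomethylase of the same residue, had a change of 0.12 (adjusted p = 0.28). EZH2 and EZH1, the catalytic subunits of Polycomb repressive complex 2, did not pass the test. EZH2 had 616 and 716 fragments with vehicle and 555 and 493 with gemcitabine (log2 change -0.23, adjusted p = 0.052). EZH1 had 425 and 409 against 352 and 294 (log2 change -0.26, adjusted p = 0.067).

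Of the 17 demethylases tested, 2 rose and 5 fell, where 18.5% of all genes tested rose and 20% fell. KDM1A (LSD1), the flavin-dependent H3K4 demethylase, went from 1213 and 1174 fragments to 855 and 897 (log2 change -0.33, SE 0.074, adjusted p = 0.00271). It is the 1 member that Cuffdiff marked as failed in a library, vehicle replicate 1. KDM7A (ENSG00000006459.6, hg19 chr7:139784546-139876783), a JmjC enzyme that removes repressive methyl marks from H3K9 and H3K27, went from 223 and 263 fragments to 122 and 146 (log2 change -0.74, SE 0.14, adjusted p = 0.000725). KDM3B, an H3K9 demethylase, fell by 0.32 (SE 0.065, adjusted p = 0.00135) and KDM4C, of the H3K9 and H3K36 family, fell by 0.29 (SE 0.085, adjusted p = 0.0134). The adjusted p of KDM4C was 0.102 with library totals and 0.0983 with DESeq2. KDM2B, a partner of a variant Polycomb complex 1, had 836 and 821 fragments with vehicle and 588 and 641 with gemcitabine (log2 change -0.32, SE 0.082, adjusted p = 0.00698). Its mean FPKM went from 19.0 to 20.7, and it was the 1 member past the test whose FPKM and fitted change differed in sign. Such a difference was found in 10 of the 68 enzyme members tested. With library totals the adjusted p of KDM2B was 0.0524.

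KDM4D, an H3K9 demethylase best known from testis, rose from 39 and 42 fragments to 80 and 66 (log2 change 0.96, SE 0.23, adjusted p = 0.00457), at a level of 0.757 FPKM in vehicle and 1.60 FPKM with gemcitabine. KDM4A, its widely expressed relative, rose by 0.22 (SE 0.081, adjusted p = 0.0462), from 580 and 643 fragments to 641 and 673. The fragments of KDM4A overlapped between conditions before scaling and its CPM did not, and with DESeq2 its adjusted p was 0.181. KDM5C, an H3K4 demethylase with the highest level of the JmjC group in vehicle (42.0 ± 7.11 FPKM, SD, n = 2), had a change of -0.13 (adjusted p = 0.19). The H3K27 demethylases KDM6A and KDM6B had changes of 0.17 (adjusted p = 0.14) and 0.18 (adjusted p = 0.0754). The median of the JmjC group was -0.13, and 0.071 on the FPKM scale.

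The class I deacetylases of the same complexes moved apart. HDAC2 went from 2579 and 2693 fragments to 1665 and 1865 (log2 change -0.46, SE 0.073, adjusted p = 0.00019). HDAC1, its close paralog, went from 2270 and 2300 to 2593 and 2520 fragments (log2 change 0.28, SE 0.065, adjusted p = 0.00378). The ratio of HDAC1 to HDAC2 fragments was 0.880 and 0.854 with vehicle and 1.56 and 1.35 with gemcitabine, and on the FPKM scale 0.645 and 0.588 against 1.24 and 0.912. On both scales the ratio was higher in both treated libraries than in either vehicle library. HDAC3, the enzyme of the NCoR and SMRT complexes, rose by 0.28 (SE 0.073, adjusted p = 0.00751), while HDAC8 had a change of -0.18 (adjusted p = 0.14).

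In class IIa, whose members shuttle between nucleus and cytoplasm, HDAC4 fell from 1800 and 1867 fragments to 1340 and 1279 (log2 change -0.37, SE 0.065, adjusted p = 0.000459). HDAC5 rose by 0.26 (SE 0.077, adjusted p = 0.0144, or 0.0547 with DESeq2). HDAC7, with the highest level of the class in vehicle at 60.4 ± 7.87 FPKM (SD, n = 2), had a change of -0.013 (adjusted p = 0.90), and HDAC9, with 11 to 19 fragments a library, a change of 0.60 (adjusted p = 0.28). The antisense transcript HDAC4-AS1 had 4 to 11 fragments a library, and without strand information its reads and those of HDAC4 cannot be told apart. HDAC6, the tubulin deacetylase of class IIb, had 35.5 FPKM in vehicle and rose by 0.24 (SE 0.089, adjusted p = 0.0492). HDAC11, the only class IV enzyme, had 68 and 59 fragments with vehicle and 85 and 87 with gemcitabine (log2 change 0.55, SE 0.20, adjusted p = 0.0417). Its FPKM was 3.76 and 2.80 against 11.6 and 2.81, so that 1 treated library alone carried the difference on that scale. With DESeq2 the adjusted p was 0.20 for HDAC6 and 0.211 for HDAC11.

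The sirtuins had the highest median change of the groups with more than 3 members, 0.35, or 0.46 with library totals and 0.43 on the FPKM scale. The medians over all genes tested were 0.0069, or 0.12 with library totals, and 0.10 on the log2(FPKM + 1) scale with a filter. Of the 7 sirtuins 3 rose and 1 fell, where 18.5% and 20% of all genes tested did. SIRT5, a mitochondrial enzyme that removes succinyl and malonyl groups, went from 133 and 158 fragments to 210 and 186 (log2 change 0.56, SE 0.14, adjusted p = 0.00463). SIRT2, a mostly cytoplasmic deacetylase, went from 425 and 430 to 518 and 496 (log2 change 0.36, SE 0.086, adjusted p = 0.00433). SIRT6, a nuclear deacetylase of histone H3 with roles in DNA repair, went from 230 and 257 to 293 and 280 (log2 change 0.35, SE 0.11, adjusted p = 0.0181). These 3 were higher in both treated libraries, as was the CPM of 35% of all genes tested, though the adjusted p of SIRT6 was 0.132 with DESeq2. SIRT7, the nucleolar member, had a change of 0.36 (adjusted p = 0.0539). SIRT1, the nuclear deacetylase of p53 among others, went the other way, from 890 and 971 fragments to 628 and 748 (log2 change -0.32, SE 0.090, adjusted p = 0.011), and with library totals its adjusted p was 0.0705.

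**Figure D3:**
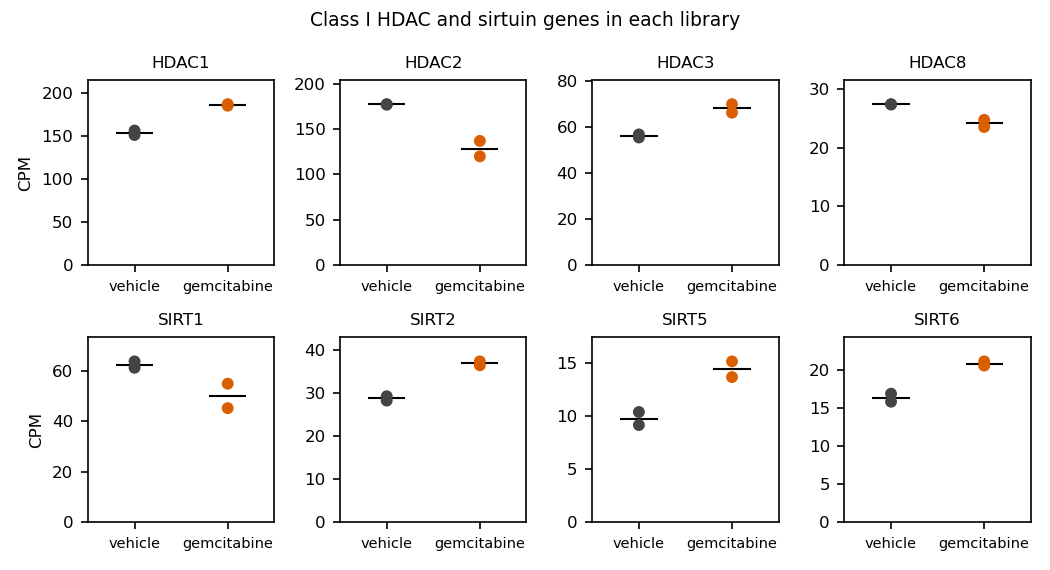
CPM of the 4 class I HDAC genes and 4 sirtuin genes is plotted for each library, as points for the 2 vehicle and 2 gemcitabine libraries with a line at their mean, on axes that start at 0. HDAC1 and HDAC3 lie higher and HDAC2 lower in both treated libraries, and SIRT2, SIRT5 and SIRT6 lie higher where SIRT1 lies lower.

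The DNA methyltransferases divided as well. DNMT3B, a de novo enzyme, went from 281 and 309 fragments to 395 and 383 (log2 change 0.51, SE 0.096, adjusted p = 0.00074). DNMT3A, the other de novo enzyme, went from 745 and 757 to 567 and 563 (log2 change -0.30, SE 0.078, adjusted p = 0.00757). DNMT1 went from 3721 and 3785 to 2953 and 3004 (log2 change -0.22, SE 0.065, adjusted p = 0.0154). The de novo enzymes therefore moved in opposite directions, and the falls of DNMT1 and DNMT3A had adjusted p = 0.154 and 0.0691 with library totals. DNMT3L (ENSG00000142182.4, hg19 chr21:45666222-45682099), a catalytically inactive partner of the de novo enzymes, had 58 and 74 fragments with vehicle and 129 and 74 with gemcitabine (log2 change 0.73, SE 0.24, adjusted p = 0.027). It met the 4 criteria, but a vehicle and a treated library held the same number of fragments, and without gemcitabine replicate 1 the change was 0.29 with an adjusted p over 0.05. TET3 (ENSG00000187605.10, hg19 chr2:74212037-74335303), a dioxygenase of methylated cytosine, went from 278 and 349 fragments to 205 and 178 (log2 change -0.60, SE 0.12, adjusted p = 0.00166). TET2 had the highest level of the TET genes with gemcitabine, 4.02 FPKM, and a change of 0.18 (adjusted p = 0.18). TET1 had a change of -0.41 (adjusted p = 0.37), although its mean FPKM went from 0.0136 to 0.0248.

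For 4 marks the summed level of selected enzymes that write a mark was set against that of selected enzymes that remove it. This was done as a ratio of FPKM in each library, with no test at 2 against 2 libraries. For H3K4 the COMPASS type genes stood against KDM1A, KDM1B, KDM5A, KDM5B and KDM5C. EZH1 and EZH2 were set against KDM6A and KDM6B for H3K27, and SETD2 against KDM2A and KDM2B for H3K36. For DNA methylation DNMT1, DNMT3A and DNMT3B were set against the TET genes. The sums are not complete, since KMT2B was not matched and SETD7, KDM7A and KDM4C, among others, were left out. For H3K4 the ratio was 0.338 and 0.323 with vehicle and 0.268 and 0.308 with gemcitabine. For H3K27 it was 1.54 and 1.57 against 1.36 and 1.13, and for H3K36 0.322 and 0.365 against 0.269 and 0.277. In these 3 the ratio was lower in both treated libraries, also with fragments in place of FPKM. For DNA methylation the ratio was 20.4 and 18.1 against 21.0 and 18.5, and the conditions overlapped. These are ratios of mRNA levels, and the marks themselves were not measured.

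Other genes of the same chromatin pathways, were taken from lists of 9 functions. Of 133 tested, 10 rose and 63 fell, and the median change was -0.20. With library totals 16 rose and 48 fell. Over all genes tested 18.5% rose and 20% fell, or 27.4% and 13.3% with library totals. The cofactor enzymes include MAT2A, which makes the methyl donor S-adenosylmethionine for every methyltransferase above. MAT2A fell from 7538 and 7931 fragments to 3936 and 3882 (log2 change -0.87, SE 0.064, adjusted p = 2.45e-07), with no overlap. MTAP, which salvages methionine, fell by 0.75 (adjusted p = 3.51e-06), and NMNAT1, which makes nuclear NAD, rose by 0.74 (adjusted p = 0.00574). Of the 20 cofactor genes, 4 rose and 4 fell.

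Among 11 histone acetyltransferases, which add what the deacetylases remove, 6 fell and KAT2B alone rose (log2 change 0.60, adjusted p = 9.78e-05). Of 21 lysine and arginine methyltransferases outside the symbol rule, 11 fell and none rose, with DOT1L, the H3K79 enzyme, at -0.69 (adjusted p = 6.69e-06), SMYD5 at -0.76 (adjusted p = 1.34e-05) and PRDM15 at -0.60 (adjusted p = 0.000205). Of 7 further demethylases and hydroxylases, 1 rose and 5 fell, RIOX2 by 1.17 on the log2 scale (adjusted p = 2.92e-06). Of 24 partners in deacetylase complexes, 13 fell and none rose, with SAP30 at -0.65, GATAD2A at -0.63 and RCOR2 at -1.04. Of 12 COMPASS partners, 7 fell and none rose, with PAXIP1 at -0.68. Of 18 Polycomb repressive complex 1 genes, 1 rose and 8 fell, with CBX6 at -1.12. Of 9 partners of EZH2, 2 rose and 3 fell, with PHF1 rising by 0.78. Of 11 readers and partners of DNA methylation, 1 rose and 6 fell, with USP7 at -0.64, TRDMT1 at -0.67, GADD45B at -0.68 and GADD45A rising by 0.78. The counts of genes that rose were thus smaller in each of these 8 lists than the counts of genes that fell, and equal in the cofactor list. Over all genes tested 18.5% rose and 20% fell, and no list was tested against these shares. Genes of S phase and mitosis moved too: of 18, 11 fell and 3 rose, with a median of -0.41, MCM5 at -1.14 and CDK1 at 0.67. Their part in the changes of the enzyme genes was not tested.

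Among the members, longer transcripts were more often lower. The members were divided at their median length of 4582.5 bases for the longest annotated mRNA, after the values had been seen and with no test. Of the 34 longer genes 18 fell and 1 rose, with a median change of -0.30, and of the 34 shorter genes 6 fell and 13 rose, with a median of 0.14. Among the longer genes that is 52.9% lower and 2.94% higher, against 25.3% and 15.6% of all genes of such length. Among the shorter genes it is 17.6% lower and 38.2% higher, against 17.8% and 20.5%. A change below 0 was found in 76.5% of the longer members and in 44.1% of the shorter ones, against 55.1% and 46.4% of all genes tested on either side of the same length. Over 68 members, Spearman's rho of change on length was -0.30 and Pearson's r on log2 length -0.28, where over 14154 genes they were -0.11 and -0.082. Genes are not independent replicates, and all share the same 4 libraries. PRMT3 and PRMT6, with mRNAs of 2552 and 2621 bases, are short genes that fell furthest. The longest mRNA of a gene need not be the one expressed, HDAC2 with 9737 bases being such a doubtful case.

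**Figure D4:**
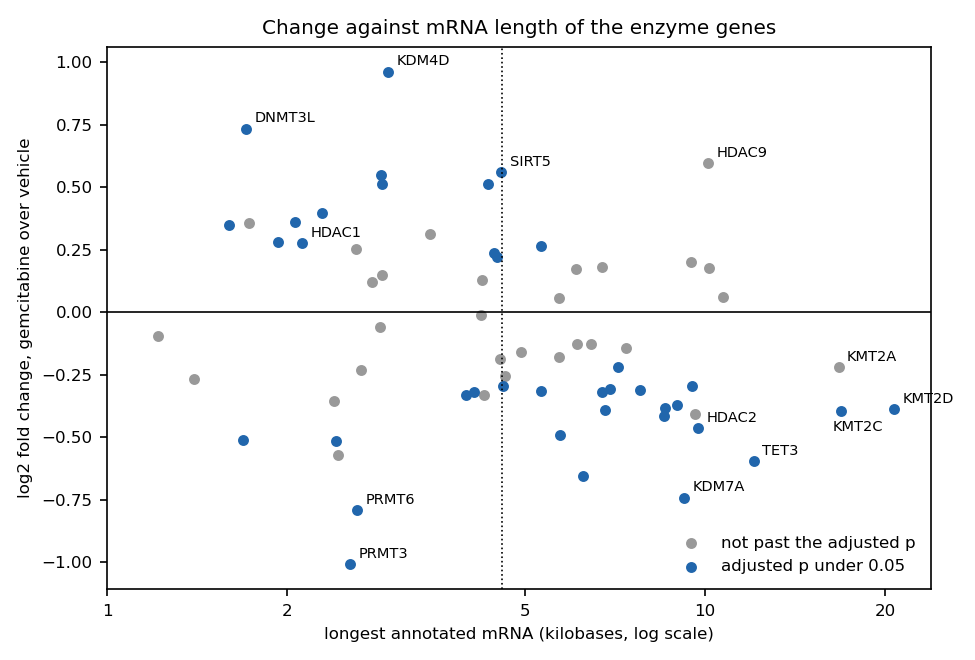
The log2 fold change of gemcitabine over vehicle is plotted for 68 enzyme genes against the length of their longest annotated mRNA in kilobases on a log scale, with the member median dotted. Points right of the dotted line lie mostly below 0, and 13 of the 14 members that rose lie to its left.

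The DNaseI-seq libraries were read at the starts of these genes, with 1 library per condition and therefore no test. DNaseI cuts accessible DNA, and peaks were called by the authors in each library on hg19, with a score that is the negative log10 of the p-value multiplied by 10. A peak within 1 kb of an annotated start was found for 30 of 70 members with vehicle (42.9%) and for 35 with gemcitabine (50%). Over all genes tested the shares were 27.7% and 32.1%, and over the members tested 43.5% and 50.7%. In both libraries the share was larger among the members than among all genes, and this was not tested against expression level. HDAC4 and its antisense transcript HDAC4-AS1 share a listed peak in each library, which was counted for both. The gemcitabine list is also the longer one, with 10695 peaks against 9606. Peaks stood at 26 members in both libraries, at 4 (HDAC8, KMT2A, PRMT3 and SIRT6) with vehicle alone and at 9 (DNMT3B, KDM1A, PRMT9, SETD1A, SETD2, SETD9, SIRT1, SIRT4 and SIRT5) with gemcitabine alone. Of 14512 genes tested, 3037 had peaks in both libraries, 978 with vehicle alone and 1616 with gemcitabine alone. The members were not tested against these counts.

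PRMT3, the member that fell most, had a peak at its start with vehicle (chr11:20408751-20409323, score 76.7) and none on the gemcitabine list. SIRT5, the sirtuin that rose most, had none with vehicle and a peak at its start with gemcitabine (chr6:13573852-13575739, score 143). Peaks and transcripts did not go together throughout, since SETD2, SIRT1 and KDM1A fell and had a peak with gemcitabine alone, and SIRT6 rose and had one with vehicle alone. The highest score in both libraries was that of KMT5C, 205 with vehicle and 249 with gemcitabine. PRMT1 had 183 and 218, and KDM8 had 195 and 187. HDAC1 had 77.6 and 70.3, and no peak was listed at HDAC2, PRMT6, SETD6, TET3, KDM7A or DNMT3L in either library. A gene with no listed peak may still be open below the threshold of the peak caller, as the listing holds only peaks with a score of at least 50.

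**Figure D5:**
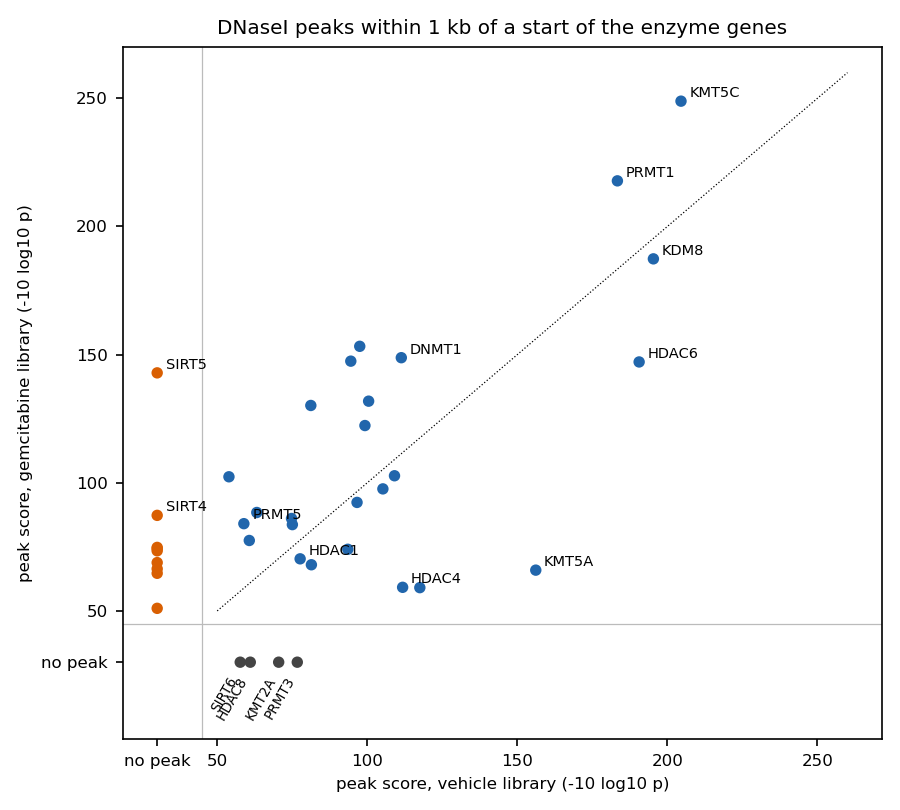
Scores of the highest DNaseI peak within 1 kb of a start of the enzyme genes are plotted for the vehicle library (x axis) against the gemcitabine library (y axis), each the negative log10 of the p-value multiplied by 10, with genes lacking a peak set on the line marked no peak. SIRT5 stands apart among the 9 genes with a peak in the gemcitabine library alone, and PRMT3 has the highest score of the 4 with one in the vehicle library alone.

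The promoters of 6 members, picked for their RNA or DNaseI results, are shown. Each is the 250 bases before the RefSeq start on GRCh38.p14, a build other than that of the peaks. Capitals mark strings searched on both strands, namely the E-box CACGTG, the GC box GGGCGG or CCGCCC, the CCAAT box CCAAT or ATTGG and the NRF1 palindrome. A match describes the letters and is no sign of binding. PRMT3 (chr11:20387466-20387715, plus strand) fell most and had a listed peak with vehicle alone, and holds 1 E-box and 2 GC boxes. SETD6 (chr16:58515267-58515516, plus strand), with 1 E-box, 1 GC box and 1 CCAAT box, and TET3 (chr2:73984660-73984909, plus strand), with 2 E-boxes and 3 GC boxes, fell as well. The promoters of PRMT6 and KDM7A, which fell further than SETD6 and TET3, were read too but are not shown. PRMT6 holds none of the strings, and KDM7A holds 1 GC box and no E-box. SIRT5 (chr6:13574351-13574600, plus strand) rose and had a listed peak with gemcitabine alone, and holds 2 GC boxes and 1 NRF1 string. HDAC1 (chr1:32291833-32292082, plus strand), with 3 GC boxes, a pair of which overlap, and 1 CCAAT box, and HDAC2 (chr6:113971149-113971398, minus strand), with none of the strings, are the paralogs that moved apart.
PRMT3: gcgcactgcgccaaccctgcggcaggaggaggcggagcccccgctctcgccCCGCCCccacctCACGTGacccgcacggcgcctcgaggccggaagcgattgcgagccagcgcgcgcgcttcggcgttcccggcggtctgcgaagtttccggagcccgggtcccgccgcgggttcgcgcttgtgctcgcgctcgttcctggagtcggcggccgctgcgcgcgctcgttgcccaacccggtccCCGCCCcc
SETD6: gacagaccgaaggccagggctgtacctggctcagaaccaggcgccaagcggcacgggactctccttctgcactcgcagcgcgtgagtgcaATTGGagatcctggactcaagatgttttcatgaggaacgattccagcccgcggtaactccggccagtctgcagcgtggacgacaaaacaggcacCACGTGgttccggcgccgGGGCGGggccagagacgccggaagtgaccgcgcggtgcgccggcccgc
TET3: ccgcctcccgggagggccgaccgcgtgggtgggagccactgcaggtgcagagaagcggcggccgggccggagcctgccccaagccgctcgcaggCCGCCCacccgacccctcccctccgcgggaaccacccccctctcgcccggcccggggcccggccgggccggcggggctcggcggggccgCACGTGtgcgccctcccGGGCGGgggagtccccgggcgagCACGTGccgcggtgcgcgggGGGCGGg
SIRT5: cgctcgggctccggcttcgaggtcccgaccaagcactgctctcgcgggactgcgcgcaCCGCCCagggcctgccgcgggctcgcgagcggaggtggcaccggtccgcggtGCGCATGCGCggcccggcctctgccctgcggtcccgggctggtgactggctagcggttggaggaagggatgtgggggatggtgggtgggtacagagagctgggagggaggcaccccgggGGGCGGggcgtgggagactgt
HDAC1: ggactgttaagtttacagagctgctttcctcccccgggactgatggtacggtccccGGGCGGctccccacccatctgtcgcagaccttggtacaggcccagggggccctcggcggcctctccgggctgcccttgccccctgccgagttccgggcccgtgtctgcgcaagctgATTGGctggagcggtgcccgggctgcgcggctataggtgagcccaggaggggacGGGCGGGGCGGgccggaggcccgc
HDAC2: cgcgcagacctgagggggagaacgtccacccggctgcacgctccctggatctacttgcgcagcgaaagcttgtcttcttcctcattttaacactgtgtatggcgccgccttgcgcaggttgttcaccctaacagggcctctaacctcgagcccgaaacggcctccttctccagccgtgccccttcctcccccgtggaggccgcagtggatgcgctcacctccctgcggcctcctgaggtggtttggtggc

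RefSeq promoters were matched by symbol for 64 members. The E-box string stood in 9 of the 64 (14.1%), against 8.61% of 11460 promoters of genes tested. The 9 are PRMT3, SETD6, TET3, TET2, KMT2D, KDM4B, KDM4C, KDM6A and SIRT1. It stood in 6 of 23 promoters of members that fell and in 0 of 12 of members that rose, a count too small to read and given with no test. The NRF1 string stood in 3 of the 64 (4.69%, against 1.82%), in 0 of the 23 and in 2 of the 12. The GC box (64.1% against 65.5%) and the CCAAT box (35.9% against 34.7%) were near their shares over all promoters, as were the ETS string CCGGAAG or CTTCCGG (15.6% against 14.7%) and the E2F strings (4.69% against 4.21%). The promoters had a median GC content of 66% against 64.8% and a median of 23 CpG sites against 20 in the same 250 bases.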

How the data were processed

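RNA-seq of 4 PANC1 libraries (2 vehicle, 2 gemcitabine at 50 nM, 48 h) and DNaseI-seq of 2 libraries were used. Per the submitters' processing notes and the study's methods, the authors aligned reads to hg19 with TopHat2 2.0.8, and Cuffdiff 2.0.2 assigned them to Gencode protein-coding genes. The deposited table gives estimated counts, that is fragments per gene and library, not always whole (85.6% of the members' values are), and FPKM, normalised by the authors' Cuffdiff run. Columns scaled by Cuffdiff were not used. The deposited peak lists give positions and a score, the negative log10 of the MACS p-value multiplied by 10, at a cutoff of 1e-05. Both libraries of a condition differed by more than sampling noise (chi-square of 2.17 per gene with vehicle and 5.16 with gemcitabine) and were kept.

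Gene identifiers were matched to current symbols for 19619 of 20461 genes. Estimated counts were rounded and tested with edgeR 4.0.16 in R 4.3.3 (TMM scaling, quasi-likelihood test, 2-sided, Benjamini-Hochberg adjustment, no covariate) over the 14854 genes with at least 10 fragments in all. Each SE is the log2 change divided by the square root of F. The test was checked on simulated counts. Most members past the adjusted p had small changes, and no conclusion on such changes is drawn from that check. The members and lists were chosen with earlier results of these data known. Members named were those meeting the 4 criteria, those with an adjusted p under 0.05, and in each role the member with the largest change and that with the highest FPKM. Genes of other lists were named where they met the 4 criteria. CARM1, KMT5A, KDM6A, KDM6B, KDM8, PRMT8, PRMT9, KMT2A, SETD1A, SETD3, HDAC8, SIRT7, TET1, TET2, MCM5 and CDK1, and genes named only for a peak, a motif or a low level, were chosen after their values were seen. Starts and lengths on hg19 came from Gencode 44 carried over to that build, and promoters from RefSeq.

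Alternatives were DESeq2-type size factors, library totals, no filter or edgeR's own filter, DESeq2 1.42.0, limma 3.58.1 on log2(FPKM + 1) or log2(FPKM + 0.1) with a filter at 0.1 FPKM or none, an adjusted p under 0.01, the ratio of mean FPKM, each library left out, and other limits for peaks. The table's library index cannot be tied to the labels' replicate numbers, so replicate numbers only tell libraries apart.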

Additional observations from a re-analysis of the deposited data

How the results depend on the processing

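The count of members past the adjusted p depended on scaling and test. Higher members, 14 as reported, numbered 23 with library totals, 8 with DESeq2, 8 at an adjusted p under 0.01, and 4, 3 and 0 with limma on log2(FPKM + 1) filtered, log2(FPKM + 0.1) filtered and log2(FPKM + 1) without a filter. Lower members, 24 as reported, numbered 3, 3 and 0 with these limma fits. Without a filter limma called 0 of all 17783 genes, with 15 of 69 members at an unadjusted p under 0.05, where edgeR had 48. With 1 library left out the counts ranged from 2 to 17 (higher) and from 9 to 27 (lower). Without vehicle replicate 1, 20 of the 38 lost the adjusted p, and without vehicle replicate 2, 26 did, against 2 and 3 without gemcitabine replicates 1 and 2. The lone library of a condition is then assumed to vary like the other condition. DNMT3L, HDAC6, HDAC11, KDM4A and KMT2D also lost it with DESeq2 and with no filter on counts, and DNMT3A, HDAC5, KDM4C and SIRT6 with DESeq2. With library totals DNMT1, DNMT3A, KDM2B, KDM4C, KMT2D and SIRT1 lost it.

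Members meeting the 4 criteria, 1 higher and 5 lower as reported, were 5 and 3 with library totals and 4 and 3 with the ratio of mean FPKM. With no filter on counts and with DESeq2 0 were higher. The limma fits gave 0, 1 and 0 higher and 2, 2 and 0 lower in the order above. Leaving out 1 library gave 0 to 3 higher and 2 to 8 lower. PRMT3 and PRMT6 met the criteria in each of these 4 fits. KDM7A and TET3 did not without vehicle replicate 2 or gemcitabine replicate 2, SETD6 did not without vehicle replicate 2, and DNMT3L did not without vehicle replicate 1, vehicle replicate 2 or gemcitabine replicate 1.

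The median change, -0.16, was -0.052 with library totals, 0.013, 0.023 and 0.013 with the limma fits, and -0.15 to -0.11 with 1 library left out. The medians of all genes in the limma fits were 0.10, 0.13 and 0.041, against 0.0069 as reported. The fitted changes of KDM2B and SETD5 were reversed by limma, to 0.12, 0.13 and 0.12 and to 0.00055, 0.00062 and 0.00055. The cause was not tested. The ratio of writers to removers, as a log2 change, was -0.23 with fragments (-0.33 with FPKM) for H3K36 and -0.10 (0.035) for DNA methylation. Peaks with a score of at least 100 stood at 12 members with vehicle and 13 with gemcitabine, and peaks within 5 kb at 31 and 37.

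A replicate block on the table's library index gave 15 higher and 26 lower, 1 and 5 for the 4 criteria, and a median of -0.16, with no call lost. The index shows no pairing, since the deviations of same-indexed libraries correlate at -0.035. With 2 libraries a condition and 3 fragments at 0.190 to 0.227 CPM, a change of PRMT8, at 1 to 4 fragments, was not detectable at this depth, and HDAC9, SIRT4 and TET1 did not pass the test.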
